A study of Sus scrofa with 40 samples.

Results

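The porcine cytochrome P450 genes of drug and fatty acid metabolism were followed as a set of 10 through warm ischemia and cold storage of the kidney: CYP2C42, CYP2C34, CYP2C33, CYP2C49, CYP2A19, CYP2E1, CYP3A29, CYP4A21, CYP4A24 and CYP1A1. All 10 were found on the arrays by the gene name or by the bracketed symbol in the probe description, as 32 probes under 10 identifiers, 1 per gene, among 35955 identifiers and 43803 non-control spots. Each of 40 single-color Agilent porcine arrays measured 1 tissue sample of kidney cortex (C) or corticomedullary junction (CMJ) of Large White pigs aged 3 months, with 5 arrays in each of 8 groups. Control kidneys (Ctl) had neither treatment, WI kidneys had 60 min of warm ischemia at 37 °C, and WI+CS6h and WI+CS24h kidneys had the same warm ischemia and then 6 h or 24 h of cold storage at 4 °C in UW solution. No kidney was cold-stored without warm ischemia. The labels do not give the sex of the animals, which the study's methods call brothers. The labels state that the 5 cold-stored kidneys were sampled at both times, so the 40 arrays come from 15 kidneys and the 6 h and 24 h groups do not hold separate animals. Arrays of a group are numbered 1 to 5 in the labels, which do not say that a number marks a kidney, so the text speaks of arrays with the same number.

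Cytochrome P450 enzymes are heme proteins, most of them in the endoplasmic reticulum, that insert 1 oxygen atom into a substrate with electrons from NADPH. Families CYP1, CYP2 and CYP3 oxidize drugs and other foreign compounds, and several CYP2C enzymes also oxidize arachidonic acid. CYP4A enzymes hydroxylate fatty acids at the far end of the chain and are abundant in proximal tubules of the kidney. Liver holds most of the drug-oxidizing P450 of the body, and the kidney holds fewer forms. Pig forms carry their own numbers, and CYP2C42 or CYP2A19 has no human gene of the same name.

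CYP2C42 fell in every cold-stored group in both regions and was at background on 19 of the 20 cold-stored arrays, and CYP4A21 fell in all of these groups by a much smaller factor. CYP2C34 fell against Ctl in cortex, CYP2A19 fell against WI in CMJ, and CYP4A24 fell against WI after 24 h in both regions. Most of these calls were lost when single arrays were left out, in 7 and 9 of 10 fits for CYP2C34, 8 and 7 for CYP2A19 and 7 for CYP4A24 in cortex, and in 0 for CYP4A24 in CMJ. CYP2C33 stayed in a narrow band on all 40 arrays. CYP2A19 spanned 5.06 log2 units over the 5 cold-stored array numbers (mean of their arrays), beside 0.77 in Ctl and 0.62 in WI, while CYP2C49 and CYP1A1 spanned several log2 units in all treatments (2.89 to 5.87). No gene was called between WI and Ctl. In pieces of tissue, fewer cells of a type and less RNA per cell cannot be told apart.

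Probe sequences are shown where the reading of a gene rests on what its probes can tell apart. Each probe has 60 bases and is written as deposited, with the position of its first base in the transcript that the array files give. CYP2C42, CYP2C34 and CYP2C49 lie near each other in the RefSeq annotation of the Sscrofa11.1 assembly. There are 2 genes between CYP2C42 and CYP2C49 and 6 between CYP2C34 and CYP2C49. CYP2C33 lies farther off, with 75 genes between it and CYP2C42. CYP2C49 was read by 3 probes that behaved differently, CYP2C34 by 1, and CYP2C42 by 1, of which the first 30 bases are given.
CYP2C49 probe at 636: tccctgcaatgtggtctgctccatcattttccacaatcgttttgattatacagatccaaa
CYP2C49 probe at 973: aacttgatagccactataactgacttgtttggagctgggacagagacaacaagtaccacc
CYP2C49 probe at 1240: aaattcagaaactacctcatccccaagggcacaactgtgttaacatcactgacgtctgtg
CYP2C34 probe at 945: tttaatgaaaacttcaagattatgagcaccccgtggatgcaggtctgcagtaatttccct
CYP2C42 probe at 1721, bases 1 to 30: gtacagggtagttcctgtctgtaagatcta

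The CYP2A19 probe at 1301 covers the loop that holds the heme, which is the signature of the whole enzyme family. The capitals mark the codons of that signature, which 1 of the 32 probes contains.
CYP2A19 probe at 1301: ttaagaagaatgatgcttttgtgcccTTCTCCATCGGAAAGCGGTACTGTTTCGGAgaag

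Neighbouring probes of CYP3A29 and of CYP4A21 overlap and differ by 1 base, set in capitals. Positions are counted from 1 at the 5′ end of the first probe of each pair. The CYP3A29 probes at 1458 and 1470 share 49 bases with the difference T12A, and the CYP4A21 probes at 1492 and 1497 share 55 bases with the difference G42C. The CYP3A29 pair was aligned without gaps at an offset of 11 bases, which is not the distance between its given positions. Its difference is the first base of the overlap.
CYP3A29 probe at 1458: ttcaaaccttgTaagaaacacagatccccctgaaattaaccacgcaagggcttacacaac
CYP3A29 probe at 1470: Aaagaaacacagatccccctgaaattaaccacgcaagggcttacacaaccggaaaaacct
CYP4A21 probe at 1492: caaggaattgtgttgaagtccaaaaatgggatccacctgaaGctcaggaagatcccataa
CYP4A21 probe at 1497: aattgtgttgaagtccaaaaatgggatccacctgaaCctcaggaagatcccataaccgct

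CYP4A21 and CYP4A24 have 3 genes between them in Sscrofa11.1 and are nearly identical where their last probes lie. The probe at 2341 of CYP4A21 and the probe at 2352 of CYP4A24 share 49 bases with the differences A34G and C59A, of which the first is in capitals in the 30-base windows below. The array files list the CYP4A21 probes at 2130 and 2341 for the CYP4A24 transcript too, so the signals of this pair of genes cannot be fully separated. In the same way, all 6 CYP2C33 probes are also listed for a neighbouring RefSeq gene, LOC100739741, with 0 genes between them, and the CYP2C33 signal is that of both.
CYP4A21 probe at 2341, window: cctcccttctgtccAactccctgataaagt
CYP4A24 probe at 2352, window: cctcccttctgtccGactccctgataaagt

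Values are log2 of the background-subtracted intensity after quantile normalization of all 40 arrays, averaged over the probes of a gene, so levels of different genes are not compared. Between 56.88% and 69.82% of the spots of an array were well above background, which is the depth of an array. A gene was called where the Benjamini-Hochberg adjusted p of limma over all identifiers was under 0.05 and the log2 fold change was at least 0.5 in size, and "rose" and "fell" are used only of calls. Of the 10 genes, 3 fell in cortex after 6 h and 3 after 24 h of cold storage against Ctl-C, where 2.39% and 1.46% of all identifiers were called lower. Against WI-C, 2 fell after 6 h and 3 after 24 h, with 0.921% and 0.568% of all identifiers. In CMJ, 2 genes fell at each time against Ctl (1.84% and 2.3% of all identifiers), and 3 and 4 fell against WI (1.41% and 1.61%). None of the 10 rose in any comparison, while 1.63%, 1.04%, 1% and 0.637% of all identifiers rose in these cortex comparisons and 1.35%, 1.35%, 1.37% and 1.24% in those of CMJ. The arrays of the compared groups did not overlap for 4, 4, 3 and 3 of the 10 genes in these cortex comparisons, beside 5.19%, 5.71%, 3.24% and 3.36% of all identifiers, and for 4 in each CMJ comparison, beside 5.94%, 5.44%, 5.89% and 4.56%. The median log2 difference of the 10 genes lay between -1.24 and -0.71 in these 8 comparisons, beside medians of all identifiers between -0.008 and 0.047.

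**Figure D1:**
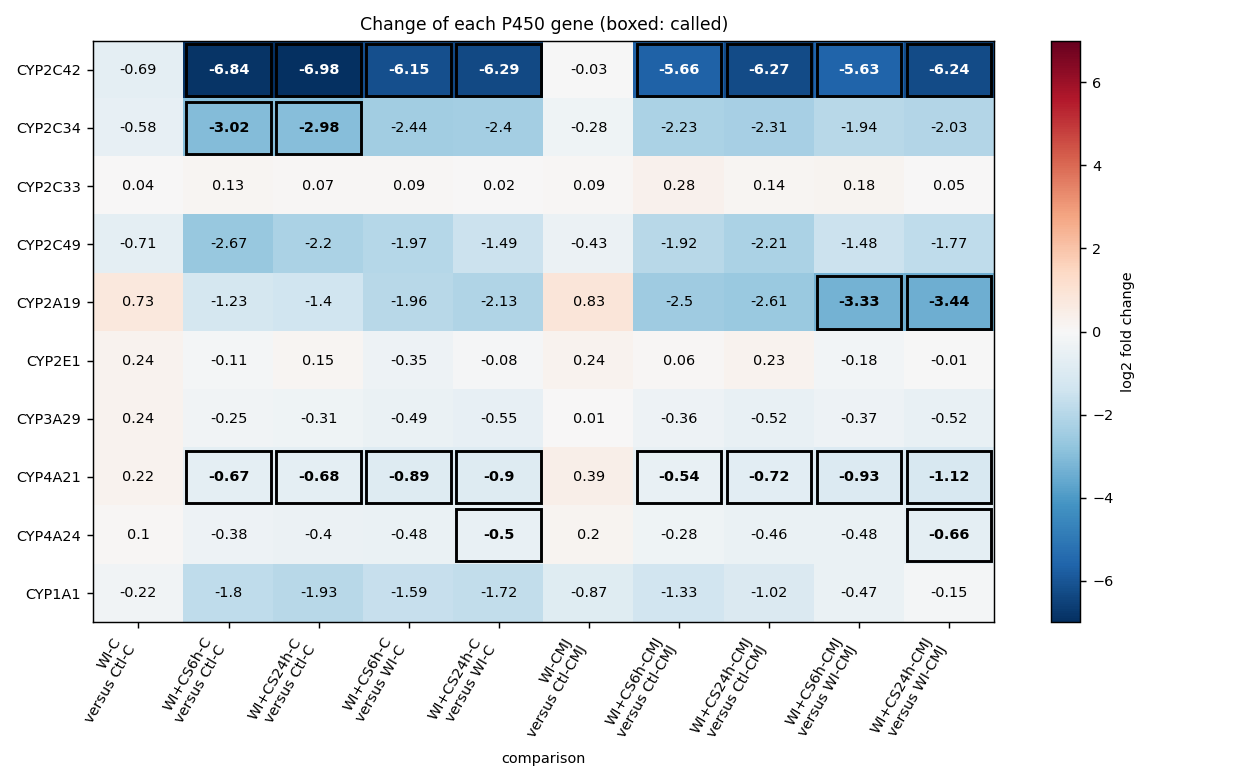
Log2 fold change (color and printed value) of each of the 10 genes (rows) in 10 comparisons of treatments (columns), 5 in cortex and 5 in CMJ. Boxed values are calls. CYP2C42, at background on 19 of 20 cold-stored arrays, has fitted values between -5.63 and -6.98 in the 8 comparisons with cold storage, and CYP4A21 lies between -0.54 and -1.12, and no gene is boxed in WI versus Ctl.

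CYP2C42, a CYP2C enzyme named for the pig, had log2 signals of 8.23, 8.42, 8.23, 8.94 and 6.2 on Ctl-C arrays 1 to 5 and of 7.8, 9.27, 8.22, 2.3 and 8.99 on WI-C arrays 1 to 5. WI+CS6h-C arrays read 1.42, 1.34, 0.53, 1.98 and 0.53, and WI+CS24h-C arrays read 0.91, 0.97, 1.48, 1.33 and 0.43. All 10 cold-stored cortex arrays were below all Ctl-C and WI-C arrays, and none was well above background. In CMJ the levels were 7.54, 8.4, 8.51, 8.23 and 3.58 in Ctl, 7.26, 8.75, 8.39, 3.12 and 8.61 in WI, 1.38, 2.13, 1.34, 2.45 and 0.66 in WI+CS6h, and 0.4, 0.71, 1.68, 1.49 and 0.63 in WI+CS24h. The groups did not overlap there either, and array 4 of WI+CS6h-CMJ was the 1 cold-stored array of 20 well above background. The Ctl array 5 and the WI array 4 stood below the rest of their groups in both regions.

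A signal that is not above background gives only a bound, for which each dim array was set to the lowest signal of a spot well above background on it, or to its own signal if higher. CYP2C42 was at least 39.8-fold lower in WI+CS6h-C and at least 53.6-fold lower in WI+CS24h-C than in Ctl-C. The same calculation gave 24.7-fold and 33.2-fold against WI-C, which are not strict bounds because WI-C array 4 was itself not well above background and entered at its own signal. In WI+CS24h-CMJ it was at least 26.8-fold lower than in Ctl-CMJ and at least 26.3-fold lower than in WI-CMJ. No bound was set for WI+CS6h-CMJ, where 1 of 5 arrays measured the gene. The fitted log2 fold changes, which set signals at background against measured ones and are not sizes of the fall, were -6.15 (SE 0.94, adjusted p = 0.002) and -6.29 (SE 0.94, adjusted p = 0.00209) against WI-C and -5.66 (SE 0.98, adjusted p = 0.00246) and -6.27 (SE 0.98, adjusted p = 0.000978) against Ctl-CMJ in limma. All 8 calls held with each array left out in turn, at adjusted p up to 0.0126. With only the compared groups in the fit, the folds against WI-C were the same and both calls were lost, with adjusted p = 0.0717 at 6 h and 0.0534 at 24 h. Over the alternative ways of processing and the fits with an array left out, the fold change smallest in size was between -1.26 and -1.54 (log2) for each call.

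CYP2C34, another CYP2C enzyme of the same gene cluster, measured 6.89, 6.81, 6.86, 6.77 and 4.11 in Ctl-C and 5.63, 7.39, 6.63, 2.25 and 6.62 in WI-C. Its WI+CS6h-C arrays read 3.62, 3.44, 3.52, 3.11 and 2.65, and its WI+CS24h-C arrays 3.77, 3.77, 2.97, 3.97 and 2.06. The cold-stored cortex arrays were all below the lowest Ctl-C array, and WI-C array 4 was below 9 of these 10 arrays. CYP2C34 was not well above background on 7 of the 40 arrays, 1 of 5 in each of WI-C, WI-CMJ, WI+CS6h-C, WI+CS24h-C and WI+CS6h-CMJ and 2 of 5 in WI+CS24h-CMJ, and these entered the fits at their own signals. Against Ctl-C, CYP2C34 fell by 3.02 on the log2 scale after 6 h (SE 0.76, adjusted p = 0.0288 in limma) and fell by 2.98 after 24 h (SE 0.76, adjusted p = 0.0398).

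In CMJ, CYP2C34 read 5.65, 6.46, 6.54, 5.96 and 2.2 in Ctl and 4.6, 6.88, 6.21, 1.41 and 6.3 in WI. WI+CS6h-CMJ arrays measured 3.84, 3.84, 3.05, 2.5 and 2.48, and WI+CS24h-CMJ arrays 3.46, 3.97, 2.67, 3.02 and 2.16. The groups overlapped through Ctl-CMJ array 5 and WI-CMJ array 4, which were also the lowest of their groups for CYP2C42, and no CMJ comparison was called (log2 differences of -2.23, -2.31, -1.94 and -2.03, adjusted p of 0.214, 0.174, 0.285 and 0.264 in limma). Single arrays decided these calls. Without WI-C array 4, CYP2C34 was called against WI-C at 6 h (-3.3, adjusted p = 0.0051) and 24 h (-3.26, adjusted p = 0.00597). Without Ctl-CMJ array 5 it was called against Ctl-CMJ (-3.02 and -3.1, adjusted p = 0.045 and 0.0353), and without WI-CMJ array 4 against WI-CMJ (-2.86 and -2.94, adjusted p = 0.0433 and 0.0381). The calls against Ctl-C were lost when any 1 of 7 of the 10 arrays was left out at 6 h and any 1 of 9 of the 10 at 24 h, with adjusted p up to 0.0805 and 0.109.

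CYP2C49, a further gene of this cluster, had log2 signals of 10.59, 10.77, 10.61, 10.83 and 8.52 in Ctl-C and of 9.74, 11.17, 10.85, 5.32 and 10.73 in WI-C. The WI+CS6h-C arrays 1 to 5 read 6.81, 6.35, 10.06, 9.69 and 5.07, and the WI+CS24h-C arrays 6.42, 6.98, 9.74, 10.04 and 7.16. Cold-stored arrays 3 and 4 were close to the Ctl level and arrays 1, 2 and 5 were far below it, at both times. In CMJ the Ctl arrays read 10.02, 10.7, 10.78, 10.34 and 6.13 and the WI arrays 9.06, 10.75, 10.53, 4.86 and 10.6. WI+CS6h-CMJ arrays read 6.66, 6.73, 9.54, 9.35 and 6.12, and WI+CS24h-CMJ arrays 6.26, 6.73, 8.8, 9.59 and 5.55. The same numbers were low in CMJ as in cortex, and the groups overlapped in every comparison. The SD within groups was 1.63 to 2.18 in the cold-stored groups, 2.43 and 2.5 in WI and 0.98 and 1.96 in Ctl, and CYP2C49 was not called, for example at -2.67 (SE 1.14, adjusted p = 0.188 in limma) in WI+CS6h-C versus Ctl-C.

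The 3 probes of CYP2C49 agreed on which arrays were low and differed in how far. The probe at 636 had group means between 9.89 and 11.06, with 10.11 on Ctl-C array 5 and 9.6 on WI-C array 4. The probe at 1240 had group means between 7.51 and 11.17 and read 4.9 on WI-C array 4. The probe at 973 read 1.46 on that array, which was not well above background.

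**Figure D2:**
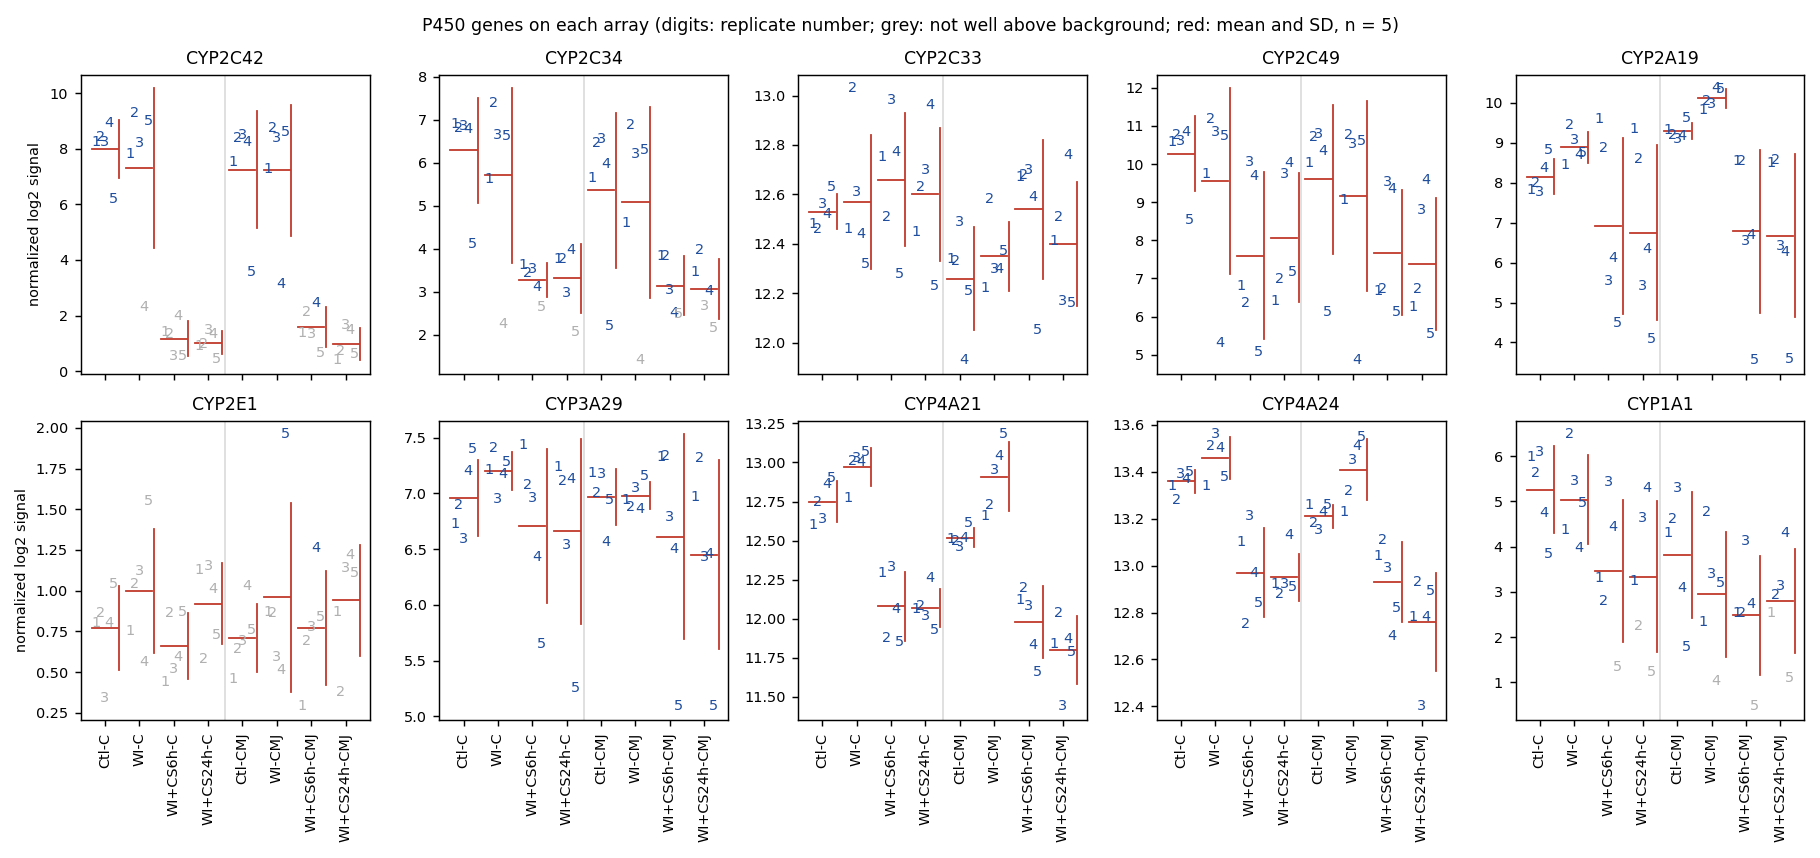
Normalized log2 signal (y axis, with its own range for each gene) of the 10 genes on every array, by group (x axis). Digits stand for single arrays at their replicate number and are grey where the array was not well above background, and red lines are the mean and SD of 5 arrays. CYP2C42 drops to background after cold storage and CYP2C33 stays between 11.93 and 13.03.

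CYP2C33, the CYP2C gene with the steadiest signal, ranged from 11.93 to 13.03 over the 40 arrays. The cortex means of Ctl, WI, WI+CS6h and WI+CS24h were 12.53 ± 0.07, 12.57 ± 0.27, 12.66 ± 0.27 and 12.60 ± 0.27 (SD, n = 5 each), and the CMJ means of these treatments were 12.26 ± 0.21, 12.35 ± 0.14, 12.54 ± 0.28 and 12.40 ± 0.25. Groups overlapped in all comparisons between treatments and none was called. No CYP2C33 probe was saturated on any array.

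CYP2A19, the pig's CYP2A enzyme, which oxidizes coumarin and skatole, measured 7.82, 7.99, 7.77, 8.36 and 8.81 in Ctl-C and 8.45, 9.45, 9.06, 8.69 and 8.75 in WI-C. The WI+CS6h-C arrays read 9.59, 8.87, 5.54, 6.11 and 4.5 and the WI+CS24h-C arrays 9.33, 8.6, 5.41, 6.33 and 4.08. Cold-stored arrays 1 and 2 were at or above the Ctl-C level and arrays 3, 4 and 5 below it, which was not the split of CYP2C49. In CMJ, the Ctl arrays read 9.32, 9.19, 9.1, 9.16 and 9.62 and the WI arrays 9.82, 10.05, 9.96, 10.36 and 10.35. WI+CS6h-CMJ arrays measured 8.55, 8.55, 6.53, 6.7 and 3.56, and WI+CS24h-CMJ arrays 8.49, 8.57, 6.41, 6.27 and 3.59. There all 10 cold-stored arrays were below all Ctl-CMJ arrays, and all WI-CMJ arrays were above them.

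CYP2A19 fell in WI+CS6h-CMJ by 3.33 (SE 0.87, adjusted p = 0.0385 in limma) and in WI+CS24h-CMJ by 3.44 (SE 0.87, adjusted p = 0.0319) against WI-CMJ, on the log2 scale. Against Ctl-CMJ the differences of -2.5 (SE 0.87, adjusted p = 0.128) and -2.61 (SE 0.87, adjusted p = 0.0993) were not called. In cortex they were -1.96 and -2.13 against WI-C, with adjusted p = 0.346 and 0.388. The interaction of region with cold storage was fitted against Ctl and was not called for CYP2A19 at either time (adjusted p = 0.858 and 1), and for the change from WI it was not tested. All 7 probes gave a lower signal, and 6 of 7 were called at 6 h and 7 of 7 at 24 h, with 3.28% and 3.34% of all probes. The calls of the gene against WI-CMJ were lost when any 1 of 8 of the 10 arrays was left out at 6 h and any 1 of 7 of the 10 at 24 h, with adjusted p up to 0.0892 and 0.0744. They were lost with only the compared groups in the fit too (adjusted p = 0.0689 and 0.0814 at the same folds), and the 6 h call with the brightest probe alone (-2.93, adjusted p = 0.052). With arrays of the same treatment and number as a block (15 kidneys), CYP2A19 was called in WI+CS24h-CMJ versus Ctl-CMJ too (-2.61, adjusted p = 0.0401, with 3.95% of all identifiers called). This comparison is between different kidneys, so it is not paired. Its SE of 0.72 in that fit, beside 0.87 without the block, rests on the correlation fitted over all identifiers of CMJ (0.474).

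CYP3A29, the pig's counterpart of the CYP3A drug oxidases, had cortex means of 6.96 ± 0.34, 7.20 ± 0.17, 6.71 ± 0.69 and 6.66 ± 0.83 for Ctl, WI, WI+CS6h and WI+CS24h (SD, n = 5 each). The corresponding CMJ means were 6.97 ± 0.25, 6.98 ± 0.12, 6.61 ± 0.92 and 6.45 ± 0.85. The lowest value of every cold-stored group was on array 5, at 5.65 and 5.25 in cortex and 5.09 and 5.09 in CMJ, and the highest arrays of each cold-stored group lay among or above those of Ctl and WI. Arrays other than 5 were also below every Ctl and WI array of their region, namely array 4 at 6 h (6.43 in cortex and 6.5 in CMJ), array 3 at 24 h (6.54 and 6.43) and array 4 at 24 h in CMJ (6.46). No comparison was called. Its overlapping probes at 1458 and 1470 differed in their estimates, with log2 differences of -1.44 (SE 0.38, adjusted p = 0.0562 in limma on probes) and -0.46 (SE 0.35, adjusted p = 0.671) in WI+CS24h-C versus WI-C. The probe at 1892 gave 0.26 (SE 0.4, adjusted p = 0.889), so the mean of CYP3A29 averages probes that disagree.

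**Figure D3:**
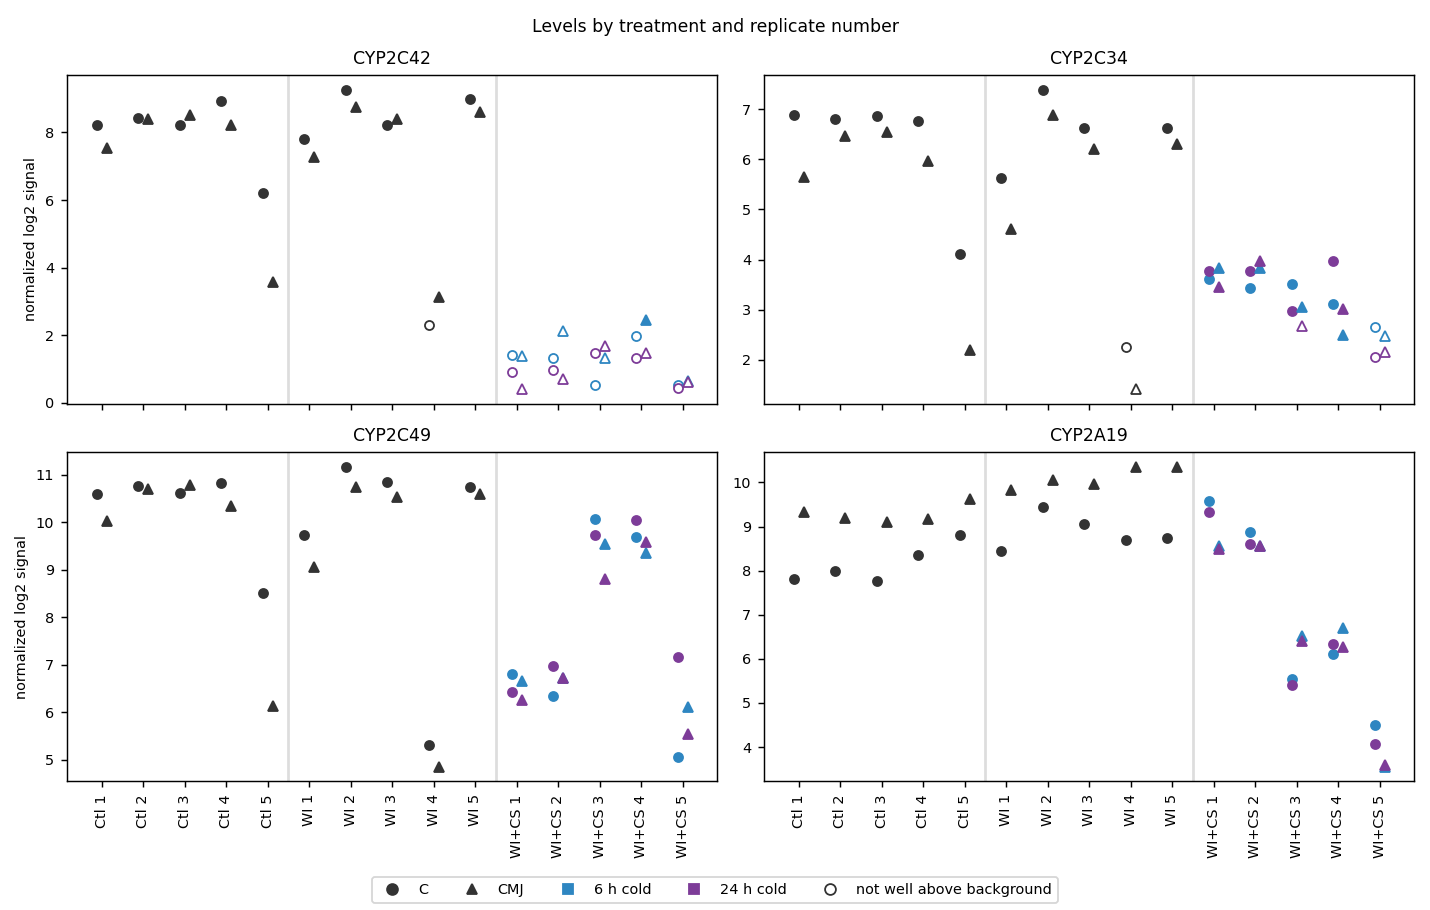
Normalized log2 signal (y axis) of CYP2C42, CYP2C34, CYP2C49 and CYP2A19 by treatment and array number (x axis). Circles are cortex and triangles CMJ arrays, color marks 6 h and 24 h of cold storage, and open symbols were not well above background. Ctl array 5 and WI array 4 are low for the CYP2C genes, cold-stored arrays 1, 2 and 5 for CYP2C49, and cold-stored arrays 3, 4 and 5 for CYP2A19.

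CYP4A21, which acts in the synthesis of the pig's own bile acids, and CYP4A24, a fatty acid hydroxylase, had small errors, and their gene means include probes that were saturated on most Ctl and WI arrays, which compresses the fold changes. CYP4A21 measured 12.6, 12.75, 12.64, 12.86 and 12.9 in Ctl-C and 12.77, 13.01, 13.03, 13 and 13.07 in WI-C. Its WI+CS6h-C arrays read 12.29, 11.88, 12.33, 12.06 and 11.85, and those of WI+CS24h-C 12.06, 12.08, 12.02, 12.26 and 11.93. In CMJ the arrays read 12.51, 12.5, 12.46, 12.52 and 12.61 in Ctl, 12.66, 12.73, 12.95, 13.04 and 13.18 in WI, 12.12, 12.2, 12.08, 11.83 and 11.66 in WI+CS6h, and 11.84, 12.04, 11.44, 11.87 and 11.79 in WI+CS24h. All cold-stored arrays were below all Ctl and WI arrays of their region. The log2 fold changes of the gene mean were -0.67 and -0.68 against Ctl-C (SE 0.1, adjusted p = 0.00135 and 0.00129 in limma) and -0.89 and -0.9 against WI-C (SE 0.1, adjusted p = 0.000238 and 0.000313). In CMJ they were -0.54 (adjusted p = 0.0156) and -0.72 (adjusted p = 0.00194) against Ctl and -0.93 (adjusted p = 0.000331) and -1.12 (adjusted p = 6.28e-05) against WI, with an SE of 0.12. The call at -0.54 was lost under quantile normalization within groups (-0.44) and normexp (-0.46). It was also lost with the brightest probe (-0.18) and without WI+CS6h-CMJ array 5 (-0.46).

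The mean of CYP4A21 includes the probe at 2341, which was saturated on 23 of 40 arrays, all Ctl and WI arrays among them. The probes at 1492, 1497 and 2130 were never saturated and were called lower in all 8 comparisons, where 4.45%, 2.9%, 2.44% and 1.68% of all probes were called in the cortex comparisons (6 h and 24 h versus Ctl, then versus WI) and 3.33%, 3.7%, 3.28% and 3.34% in CMJ. After 24 h against WI they gave -1.24, -1.5 and -0.8 in cortex (SE 0.14, 0.17 and 0.11) and -1.43, -1.66 and -1.04 in CMJ (SE 0.16, 0.2 and 0.11). The saturated probe was called in none. It was at least 1.13-fold to at least 1.26-fold lower in the 4 CMJ comparisons, and no fold is given for cortex, where it was also saturated on 2 of 5 WI+CS6h-C and 1 of 5 WI+CS24h-C arrays.

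CYP4A24 was called after 24 h of cold storage against WI, at -0.5 (SE 0.09, adjusted p = 0.0048 in limma) in cortex and -0.66 (SE 0.1, adjusted p = 0.00109) in CMJ. Its arrays did not overlap between the groups in any of the 8 comparisons with cold storage, although the other log2 differences, from -0.28 to -0.48, stayed under the size threshold. The probe at 696, which was not saturated, was called lower in 7 of the 8, with -0.8 (SE 0.12, adjusted p = 0.0014) in cortex and -0.92 (SE 0.14, adjusted p = 0.000821) in CMJ after 24 h against WI. The probe at 2352 was saturated on 19 of 40 arrays and was called in none of the 8. Leaving out 1 array in turn, the CYP4A24 call in cortex was lost in 7 of 10 fits, with log2 fold changes from -0.55 to -0.48, and the call in CMJ in none. The cortex call was also lost under 75th percentile scaling (-0.53, adjusted p = 0.0736), quantile normalization within groups (-0.47), normexp background correction (-0.48) and with the saturated brightest probe alone (-0.2), and the CMJ call with that probe (-0.39).

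**Figure D4:**
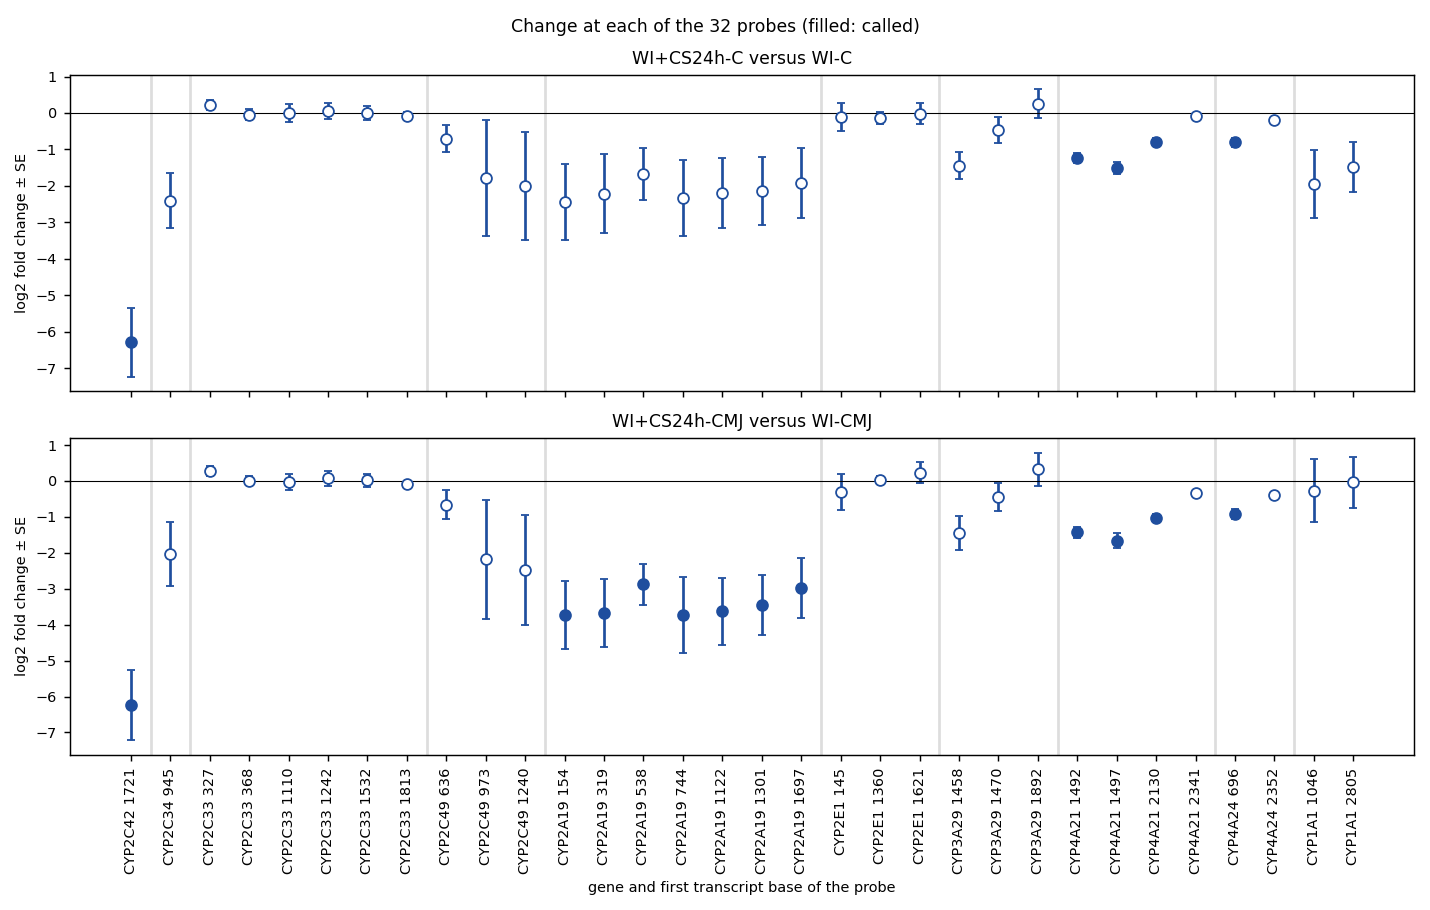
Log2 fold change (y axis) of each of the 32 probes (x axis, gene and first transcript base) in WI+CS24h versus WI, for cortex (upper panel) and CMJ (lower panel). Points are limma estimates on single probes, bars are standard errors, and filled points are calls. All 7 CYP2A19 probes are called in CMJ, and the CYP4A21 probes at 1492, 1497 and 2130 lie below the saturated probe at 2341.

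CYP1A1, the enzyme induced through the aryl hydrocarbon receptor, read 5.99, 5.62, 6.1, 4.74 and 3.84 in Ctl-C and 4.36, 6.48, 5.44, 3.97 and 4.97 in WI-C. The WI+CS6h-C arrays measured 3.31, 2.79, 5.43, 4.43 and 1.33 and the WI+CS24h-C arrays 3.23, 2.25, 4.63, 5.29 and 1.23. The groups overlapped, and array 5 was the lowest of both cold-stored groups. The log2 differences of -1.8 and -1.93 from Ctl-C (SE 0.8, adjusted p = 0.204 and 0.236 in limma) were not called. In CMJ the group ranges were 1.78 to 5.29 in Ctl, 1.04 to 4.77 in WI, 0.47 to 4.13 in WI+CS6h and 1.1 to 4.29 in WI+CS24h, and none was called. CYP1A1 was not well above background on 7 of the 40 arrays.

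CYP2E1, the ethanol-inducible form, was well above background on 2 of the 40 arrays, WI-CMJ array 5 and WI+CS6h-CMJ array 4. Its signals ranged from 0.29 to 1.96, and no fold change is given.

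In WI versus Ctl, limma called 0 of the 10 genes in cortex and 0 in CMJ, where 0.0946% and 0.687% of all identifiers were called. At an unadjusted p under 0.05 the count was 1 in each region, beside 4.89% and 12.3% of all identifiers, and was CYP4A21 both times, at 0.22 (SE 0.1, adjusted p = 1) in cortex and 0.39 (SE 0.12, adjusted p = 0.146) in CMJ. The arrays of WI-CMJ and Ctl-CMJ did not overlap for 2 of the 10 genes, beside 3.88% of all identifiers. These were CYP4A21 and CYP2A19, which was higher in WI-CMJ by 0.83 (SE 0.87, adjusted p = 0.783 in limma). The SE of CYP2A19 is shared with the cold-stored groups, whose SD of 2.04 was far above the 0.2 and 0.24 of Ctl-CMJ and WI-CMJ. With only those groups in the fit, CYP2A19 was called at 0.83 (adjusted p = 0.0413).

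Between 6 h and 24 h of storage, limma called 0 of the 10 genes in cortex and 0 in CMJ, where 0% and 0.00278% of all identifiers were called, and the count at an unadjusted p under 0.05 was also 0 in both (3.11% and 3.44% of all identifiers). The same 5 kidneys gave both groups, and with the 15 kidneys as a block that count was 0 in cortex and 1 in CMJ, CYP4A24 at -0.18 (unadjusted p = 0.0399, adjusted p = 0.54 in limma, with 8.63% of all identifiers at that threshold). For CYP2A19 the differences of arrays with the same number (24 h minus 6 h) ran from -0.42 to 0.22 in cortex and from -0.43 to 0.03 in CMJ, although the means of the 5 cold-stored array numbers spanned 5.06 log2 units. The differences for CYP2C49 ran from -0.39 to 2.09 in cortex, the highest being that of array 5, and from -0.74 to 0.24 in CMJ.

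Comparing CMJ with C, limma called 0 of the 10 genes in each of the 4 treatments, where 0.312% (Ctl), 0.671% (WI), 0.0807% (WI+CS6h) and 0% (WI+CS24h) of all identifiers were called. The counts at an unadjusted p under 0.05 were 1, 1, 0 and 2, beside 6.09%, 7.18%, 9.57% and 4% of all identifiers, and with the 15 kidneys as a block 3, 1, 0 and 2, beside 7.55%, 8.83%, 11.8% and 5.22%. CYP2A19 was higher in CMJ than in the cortex array of the same number in 5 of 5 Ctl pairs, by 1.13 ± 0.32 (SD), and in 5 of 5 WI pairs, by 1.23 ± 0.46, without overlap between the regions (which 2.44% and 3.16% of all identifiers showed, adjusted p = 1 and 0.977 in limma, with all 8 groups sharing the spread). CYP4A24 did not overlap between the regions of Ctl either, at -0.14 (adjusted p = 1). In the cold-stored groups CYP2A19 was higher in 2 of 5 and 1 of 5 pairs. CYP1A1 was lower in CMJ in 5 of 5 pairs of Ctl (-1.44 ± 0.52), WI (-2.09 ± 0.48) and WI+CS6h (-0.98 ± 0.55), and in 4 of 5 of WI+CS24h, with adjusted p between 0.4 and 0.989. CYP1A1 was not well above background on array 5 of either cold-stored group in either region. Nor was it on WI-CMJ array 4, WI+CS24h-CMJ array 1 or WI+CS24h-C array 2. Of all 20 pairs, CYP2C33 was lower in CMJ in 18, CYP2C49 and CYP4A21 in 17, and CYP2C34 and CYP4A24 in 16. The remaining genes, CYP2C42, CYP2A19, CYP2E1 and CYP3A29, were lower in 10, 7, 12 and 13. No interaction of treatment and region was called in limma for any of the 10 genes or for any other identifier (0%), and the count of the 10 genes at an unadjusted p under 0.05 was 0 for each treatment (1.98%, 5.17% and 2.58% of all identifiers for WI, WI+CS6h and WI+CS24h). With only WI-CMJ and WI-C in the fit, CYP2A19 was called between the regions at 1.23 (adjusted p = 0.021).

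**Figure D5:**
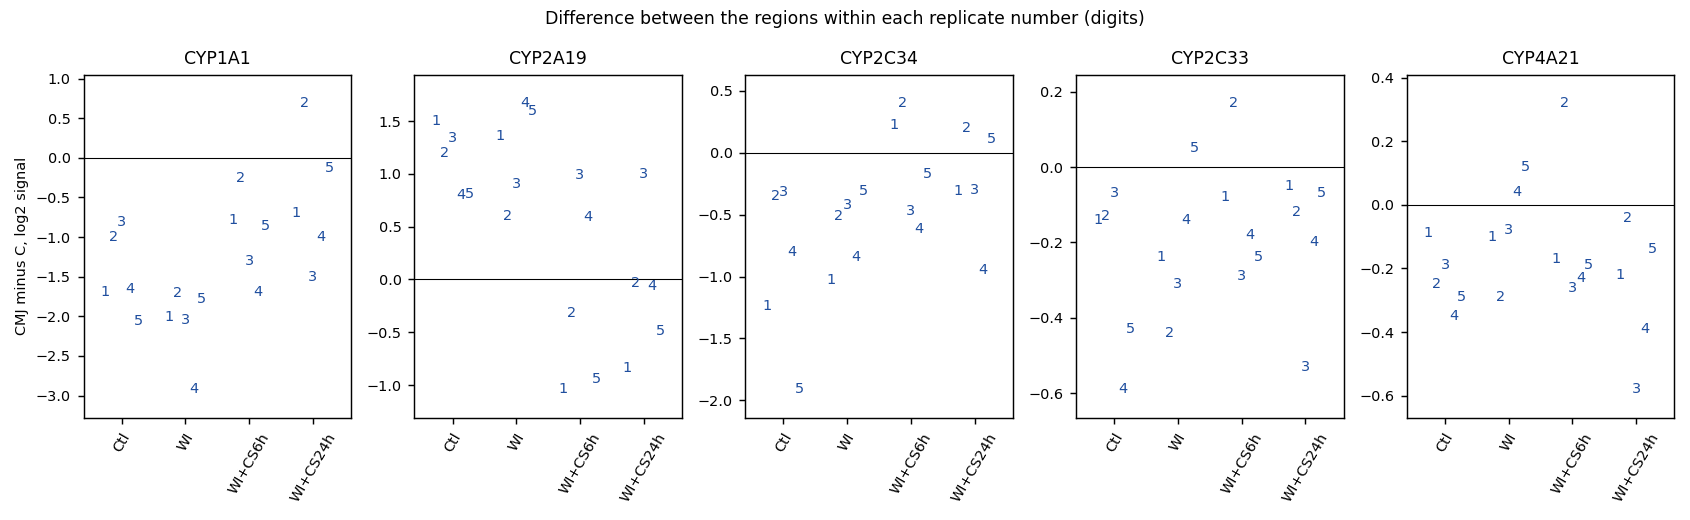
Difference in log2 signal between CMJ and cortex arrays of the same number (y axis) for CYP1A1, CYP2A19, CYP2C34, CYP2C33 and CYP4A21, by treatment (x axis). Digits are the array numbers and the line at 0 marks equal signal. CYP2A19 lies above 0 in all Ctl and WI pairs and CYP1A1 lies below 0 in 19 of 20 pairs, some of which include arrays not well above background.

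Genes with the most similar pattern were sought among 7424 identifiers with a symbol that were well above background on at least 20 arrays, as Pearson's r over the 40 arrays, which share treatments and kidneys. CYP2C49 was closest to LOC100624257, annotated as CYP2C42-like, with r = 0.994, and with r = 0.992 after each group's mean was taken out. That gene lies near the same cluster, with 10 genes between it and CYP2C49 and 3 between it and CYP2C34. The Ctl-C arrays read 10.04, 10.41, 10.04, 10.53 and 7.77 for it, the WI-C arrays 9.25, 10.7, 10.28, 3.79 and 10.35, and the WI+CS6h-C arrays 5.36, 4.9, 9.72, 9.18 and 4.38. Its low arrays were those of CYP2C49. The next were RBP4, a plasma retinol carrier (r = 0.856), and CYP1A1 (r = 0.806).

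CYP2C34 was closest to CYP2C42 (r = 0.894), LOC100154002 (0.855) and CYP3A46 (0.816). CYP2C42 was closest to RPL14, a ribosomal protein (0.898), LOC100154002 (0.897) and ZFAND5 (0.897), and these values fell to 0.63, 0.582 and 0.406 within groups. CYP2C33 was closest to XBP1, a transcription factor of the unfolded protein response (0.863), MGST1, a microsomal glutathione transferase (0.856), and HVCN1 (0.854). CYP2A19 was closest to LOC100153094, glutathione S-transferase theta-1 (0.931), FBXO32 (0.892) and CXCR6 (0.887). CYP3A29 was closest to HCST (0.954), SLC5A11, an inositol transporter (0.943), and GORASP1 (0.904).

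The CYP4A genes, which share probe sequence, were each other's closest (r = 0.97), and CPT2, an enzyme of mitochondrial fatty acid uptake, was next to CYP4A21 (0.918). CYP4A24 was also close to GALNS (0.887). CYP1A1 was closest to SLC34A1, the phosphate transporter of the proximal tubule (0.88), LGALS8 (0.863) and CLPX (0.862). CYP2E1, at background, had no r above 0.68.

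Of 24 other P450 genes on the arrays, 2, 1, 4 and 3 were called in cortex (6 h and 24 h versus Ctl-C, then versus WI-C) and 2, 2, 2 and 3 in CMJ, all of them lower, with medians between -0.01 and 0.1. Of all identifiers, the shares given above, from 0.568% to 2.39%, were called lower and 0.637% to 1.63% higher in these comparisons, and the lists below are read beside the same shares. CYP39A1, which hydroxylates an oxysterol in bile acid synthesis, fell in all 8 comparisons, by 0.92 and 0.97 in cortex and by 1.19 and 1.13 in CMJ on the log2 scale against Ctl. CYP27A1, the mitochondrial sterol hydroxylase, fell in 7. CYP3A46 fell against WI in 3 comparisons and CYP3A39 in 1. Among 9 measured genes of electron supply and heme synthesis, limma called 0 in any comparison of treatments.

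Of 16 measured regulators of P450 genes, NR1H4, the bile acid receptor, fell against Ctl by 1.13 and 1.19 in cortex and by 1.19 and 1.25 in CMJ on the log2 scale. CEBPA, a transcription factor of liver and fat, rose against Ctl by 0.84 and 0.89 in cortex and by 0.99 and 0.94 in CMJ, and by 0.76 in WI-CMJ. PPARA, the receptor through which CYP4A genes are induced, rose in WI+CS6h-CMJ by 0.89 against Ctl-CMJ and by 0.93 against WI-CMJ. Of 18 measured conjugating and other xenobiotic enzymes, CES1, a carboxylesterase, fell in cortex by 0.97 and 0.97 against Ctl, and was called lower against WI in cortex at both times and in CMJ at 24 h. HPGD, which inactivates prostaglandins, rose in CMJ by 0.75 and 0.71 against Ctl and by 0.81 and 0.77 against WI. FMO5, a flavin monooxygenase, fell by 0.78 in WI+CS24h-CMJ versus Ctl-CMJ.

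Markers of other cell types were read beside these genes. The 19 measured proximal tubule markers, the cells where renal P450 is mostly made, summed to 18.13 to 18.24 (log2) in Ctl-C, 17.85 to 18.32 in WI+CS6h-C and 17.92 to 18.31 in WI+CS24h-C, and to 17.96 to 18.13 in Ctl-CMJ, 17.78 to 18.26 in WI+CS6h-CMJ and 17.78 to 18.19 in WI+CS24h-CMJ. Single markers of this list moved in both directions. ANPEP, a brush border peptidase, rose against Ctl by 1.01 and 0.96 in cortex and by 0.99 in WI+CS6h-CMJ, and GGT1 rose in cortex by 0.63 and 0.66. SLC22A8, an organic anion transporter, rose by 0.79 in WI+CS6h-CMJ, as PDZK1 did, and HAO2, a peroxisomal oxidase, fell by 0.65 in WI+CS6h-C. Of 8 markers of medulla and distal nephron, HSD11B2 rose in 3 comparisons with cold storage (by 0.57 to 0.67), SCNN1G, an epithelial sodium channel subunit, rose in 5 (by 0.65 to 0.97), and AQP3 was called lower against WI in 4. Of 6 adipocyte markers LPL rose by 1.06 in cortex after 6 h against Ctl, and of 4 leukocyte markers limma called 0. The sum of the 10 measured hepatocyte markers was 14.2 to 14.36 in Ctl-C and 12.24 to 14.34 in WI+CS6h-C, with the lowest value of each cold-stored group on array 5, where CYP3A29 and CYP2A19 were lowest too, while the median of that list was highest on the same arrays. Of the hepatocyte markers, F2 was the 1 called, lower in 3 CMJ comparisons. Between the regions, SLC5A1 of the proximal tubule list and SLC12A1 of the medulla list were called higher in CMJ in Ctl and in WI. Of all identifiers, 0.27% and 0.593% were called higher there. Neither gene was called between the regions in the cold-stored groups. The part of these markers in the P450 values was not tested.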

How the data were processed

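RNA of 40 tissue samples was extracted with DNase treatment, labelled with Cy3 and hybridised to Agilent porcine 44k arrays, 1 sample per array. The authors deposited the spot intensity of each array as extracted with Agilent Feature Extraction 11.5.1.1, background-subtracted and not normalized between arrays. A second table that the authors deposited holds log2 values, made with R 2.15.2 and limma per the labels and the study's methods, which was used only as an alternative. Of its 1286120 values for the 32153 identifiers with 1 spot, 99.98% equalled, to within 1e-06, the log2 median signal after quantile normalization over all 40 arrays with the background left in, which compresses the fold changes of dim genes.

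Here log2 of the processed intensity was used for 43803 non-control spots. Outlier spots (10 to 85 per array) were set to missing, all 40 arrays were quantile normalized and spots of 1 identifier were averaged, which gave 35955 identifiers. A symbol was found for 9122 of them. Group means were fitted over the 20 arrays of each region, and to all 40 for comparisons between regions, with lmFit and eBayes of limma 3.58.1 in R 4.3.3 (statmod 1.5.0 and version 1.17.8 of data.table). P-values were two-sided and adjusted over all identifiers. Precision is limited by the number of arrays, 5 in each group. Each of 10 slides held 4 arrays of 4 groups. The 5 arrays of a group come from separate kidneys per the study's methods. No arrays held identical values, and the highest correlation within a group was 0.997. In simulated data, 65% of 100 identifiers changed by 1 log2 unit and 85% of 100 changed by 2 were called in a comparison of the size of WI+CS6h-C versus Ctl-C, with 8 false calls. The simulated arrays were independent, with the same spread in every group. These shares therefore do not describe genes of unequal spread, such as CYP2A19 (SD 0.43 in Ctl-C and 2.2 in WI+CS6h-C).

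Deviations from the group mean, over 21743 identifiers, correlated positively in every same-numbered pair of C and CMJ in WI (0.11 to 0.42), WI+CS6h (0.16 to 0.63) and WI+CS24h (0.22 to 0.66), and between 6 h and 24 h in CMJ (0.59 to 0.84). Pairs with different numbers reached 0.16, 0.62, 0.61 and 0.62 in these sets. The best match had the same number for 4, 3, 2 and 5 of 5 arrays in them, and for 0 of 5 between C and CMJ in Ctl. Same-numbered pairs were not all positive between C and CMJ in Ctl (-0.21 to 0.21) or between 6 h and 24 h in cortex (-0.42 to 0.62). Nor were they across Ctl, WI and cold storage, except for WI-C with WI+CS24h-CMJ (0.04 to 0.4). A block of treatment and number (15 kidneys) was used as an alternative chosen after seeing the data.

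The genes named are the 10 members, the 3 genes most like each member, up to 4 genes of each list (other P450 genes, electron and heme supply, regulators, xenobiotic enzymes, cell type markers) called most often against Ctl, and genes that a result turns on. Other called genes of the lists are named without values and were chosen after their values were seen. Members and lists were chosen with earlier results of these data known. Alternatives were the 75th percentile scaling, quantile normalization within groups, normexp with offset 50, a filter on identifiers well above background on at least 5 arrays, the brightest probe of each gene in a fit per probe, the deposited log2 values, the replicate number or the slide as a block, only the groups compared, and each array left out.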

Additional observations from a re-analysis of the deposited data

Results flagged for a closer look

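Of 80 sets of 5 arrays (10 genes in 8 groups), 15 had 1 array farther from the others than Dixon's critical value of 0.71 of the range allows, in 7 genes, where chance gives about 1 in 20. Ctl array 5 and WI array 4 were each flagged for more than 1 gene in both regions, so the 15 are not all separate events. The remaining flags fell on arrays that were flagged for 1 gene each. The labels do not say that arrays with the same number in both regions come from 1 kidney.

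CYP2C42 was low at 6.2 on Ctl-C array 5, at 2.3 on WI-C array 4, at 3.58 on Ctl-CMJ array 5 and at 3.12 on WI-CMJ array 4 (log2 signals). CYP2C34 was low at 4.11 on Ctl-C array 5 and at 2.2 on Ctl-CMJ array 5. CYP2C49 was low at 8.52 on Ctl-C array 5, at 5.32 on WI-C array 4, at 6.13 on Ctl-CMJ array 5 and at 4.86 on WI-CMJ array 4. CYP2A19, CYP3A29 and CYP1A1 had no array this far from the rest in any group.

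CYP2C33 was lowest at 12.05 on WI+CS6h-CMJ array 5, and CYP4A21 was lowest at 12.77 on WI-C array 1. CYP4A24 was highest at 13.13 on WI+CS24h-C array 4 and lowest at 12.4 on WI+CS24h-CMJ array 3. CYP2E1, at background on most arrays, was highest at 1.96 on WI-CMJ array 5.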

How the results depend on the processing

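No called result changed direction under any alternative that was run, while small differences that were not called could change sign, such as CYP2C33 in WI+CS24h-C versus Ctl-C (0.07, and -0.16 with the brightest probe). Of the 22 calls of single genes, 22 held under the dim filter, the deposited log2 values, the slide as a block and both replicate blocks, 21 under 75th percentile scaling (CYP4A24 in WI+CS24h-C versus WI-C was lost), 20 under quantile normalization within groups and under normexp (the same call and CYP4A21 in WI+CS6h-CMJ versus Ctl-CMJ, at -0.44 and -0.46), 18 with only the groups compared, and 11 with the brightest probe of each gene, which for CYP4A21 and CYP4A24 is the saturated probe. Counts of genes called moved as follows. With the brightest probe they were 2 at each time in cortex against Ctl (3 in the report), 1 at 6 h and 1 at 24 h in CMJ against Ctl (2 in each in the report), and 2 in cortex and 3 in CMJ for cold storage against WI (5 and 7, over both times). Quantile normalization within groups left 1 in WI+CS6h-CMJ against Ctl. With only the groups compared, 3 were called in cortex and 5 in CMJ for cold storage against WI, 1 in WI-CMJ against Ctl and 1 between CMJ and C (0 in the report for the last 2). Calls were also gained: CYP2A19 against Ctl-CMJ at both times under normexp, CYP4A24 in WI+CS6h-CMJ versus WI-CMJ under 75th percentile scaling and on the deposited values, and CYP2C34 in WI+CS6h-C versus WI-C under quantile normalization within groups.

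Leaving out 1 array in turn gave, against Ctl, 2 to 3 genes in cortex at either time of storage, 1 to 3 in CMJ at 6 h and 2 to 3 in CMJ at 24 h, and 4 to 6 in cortex and 5 to 8 in CMJ for cold storage against WI, and 0 for WI against Ctl, 24 h against 6 h, CMJ against C and the interactions. CYP4A21 in WI+CS6h-CMJ versus Ctl-CMJ was lost without WI+CS6h-CMJ array 5. With the replicate number as a fixed block, 3 genes were called in each cold-stored cortex group and 2 in each CMJ group against Ctl, and no call was lost. The block of 15 kidneys added the call of CYP2A19 given above and changed no other.

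The array signal limits CYP2C42 and CYP2E1, which were at background in whole groups. The saturated probes limit the size of the CYP4A changes.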
